A study of Mus musculus with 11 samples.

Results

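The genes of smooth muscle contraction were followed across 3 kinds of cultured mouse oligodendrocyte lineage cells on Affymetrix mouse expression arrays. The set held 10 of the 18193 genes named on the array, namely Tagln, Tagln2, Myl9, Acta2, Actg2, Cnn1, Cnn2, Cnn3, Tpm1 and Tpm2. Every probe set annotated to exactly 1 gene, and that gene in the set, was taken, which gave 25 of 45101 probe sets. Of these, 15 probe sets of 7 genes passed the filter on low signals (a signal of at least 200 on at least 3 arrays), and Actg2, Cnn1 and Tpm2 had no probe set past it.

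The cells came from brains of mice at postnatal day 7, were cleared of microglia with the lectin BSL1 and were immunopanned on an antibody to PDGFR-alpha, a receptor of oligodendrocyte progenitors. The medium was free of serum and held 2% B-27. Knockout oligodendrocytes (3 arrays) carried MRF fl/fl; Olig2 wt/cre, a deletion of the myelin gene regulatory factor MRF by Cre expressed from the Olig2 locus. Control oligodendrocytes (4 arrays) came from MRF wt/fl; Olig2 wt/cre littermates, so they carried the same Cre allele and 1 floxed copy too. Both were kept without PDGF-AA and with 40 ng/ml of the thyroid hormone T3, and their RNA was taken 4 days after differentiation was induced. The progenitors (4 arrays) were kept for 6 days in 10 ng/ml PDGF, and their genotype is labelled only as control. Whether the arrays of a group hold RNA of separate cultures or of separate mice is not stated in the labels. The p-values therefore cover only the spread between these arrays, part of which may be technical.

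In smooth muscle, the alpha and gamma actins (Acta2, Actg2) form thin filaments, tropomyosins (Tpm1, Tpm2) lie along them, and the regulatory light chain Myl9 of myosin II turns contraction on when it is phosphorylated. Calponins (Cnn1, Cnn2, Cnn3) and the related transgelins (Tagln, also called SM22 alpha, and Tagln2) bind actin and steady the filaments. Many of these genes are switched on by serum response factor (Srf), which binds a CArG box, the letters CC, then A or T at 6 positions, then GG, together with cofactors such as myocardin. Several of them, among them Cnn2, Cnn3, Tagln2 and Tpm1, are also used in cells that are not muscle.

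Promoter windows of 8 of the 10 genes were found in the RefSeq table of build GRCm38.p6, each running from 250 bases before to 50 bases after the gene's start. Tagln and Actg2 had no entry. The box was searched with no mismatch, and then with up to 1, and since it reads as its own reverse complement both strands were covered. An exact box stood in 2 of the 8 windows, those of Myl9 and Cnn2, and in 535 of all 32851 windows of this length (1.63%). With up to 1 mismatch a box stood in 4 of the 8, those of Myl9, Cnn2, Acta2 and Tpm1, and in 21.1% of all windows. Stretches of 50 bases around the exact boxes and around the pair of near matches before Acta2 are shown with the box in capitals, because the knockout arrays of these 3 genes lay above the control arrays without overlap.
Myl9, exact box: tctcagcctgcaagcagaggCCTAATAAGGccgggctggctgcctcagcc
Cnn2, exact box: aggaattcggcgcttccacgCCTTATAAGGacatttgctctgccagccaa
Acta2, 1 mismatch, far: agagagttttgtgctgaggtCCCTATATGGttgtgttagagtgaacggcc
Acta2, 1 mismatch, near: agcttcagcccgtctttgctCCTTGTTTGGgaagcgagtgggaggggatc
The Myl9 stretch lies at chr2:156775283-156775332 on the plus strand, with the box ending 152 bases before the start. The Cnn2 stretch lies at chr10:79988524-79988573 on the plus strand, with the box ending 47 bases before the start. The Acta2 stretches lie at chr19:34255428-34255477 and chr19:34255378-34255427 on the minus strand, with boxes ending 75 and 25 bases before the start. A match is a run of letters and does not show binding, and no match says only that the letters are not in the window. The knockout arrays of Tagln2 also lay above its control arrays, and its window had no box with up to 1 mismatch. Near matches before Tpm1 and Myl9 are not shown. A link between boxes and signals was not tested.

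Signals are the MAS 5.0 values deposited by the authors, linear and scaled per chip to a target of 500. Arrays give no counts or depth, and the number of arrays limits the precision. Between 15060 and 17072 probe sets reached 200 per array. Myrf, the targeted gene, read 1904 to 2849 on the knockout arrays and 6215 to 7517 on the control arrays, and the place of its probe set on the floxed gene was not analysed here. Progenitor replicate 2 stood apart, with a Myrf signal of 6848, where the other 3 of its group read 752 to 1135. The myelin gene Mbp divided the group otherwise, with 19380 and 15042 on progenitor replicates 2 and 3, and 1338 and 1587 on replicates 1 and 4. Gapdh control probe sets at the 5′ and 3′ ends of the transcript, which show how long the labelled RNA is, stood in a ratio of 1.26 to 1.41 for oligodendrocytes. For progenitors the ratio was 1.23 and 1.15 in replicates 2 and 3, but 0.332 and 0.12 in replicates 1 and 4.

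Tagln, Myl9 and Acta2 were higher in oligodendrocytes of either genotype than in progenitors, and their signals stood highest in the knockout. Tagln rose 6.00-fold in the knockout over the control, and it alone of the 7 measured genes passed the test there. Cnn2 and Tpm1 ran the other way on differentiation, with lower signals in control oligodendrocytes than in progenitors. On their brightest probe sets over all 11 arrays, Tagln2 and Cnn3 passed in no comparison. These calls come from limma on log2(signal + 16) over all 11 arrays, with Benjamini-Hochberg adjustment over 18568 probe sets and a threshold of 0.05. A gene is represented by its brightest probe set, the one with the highest mean over the 11 arrays. In bulk RNA, fewer cells of a type and less RNA per cell cannot be told apart.

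**Figure D1:**
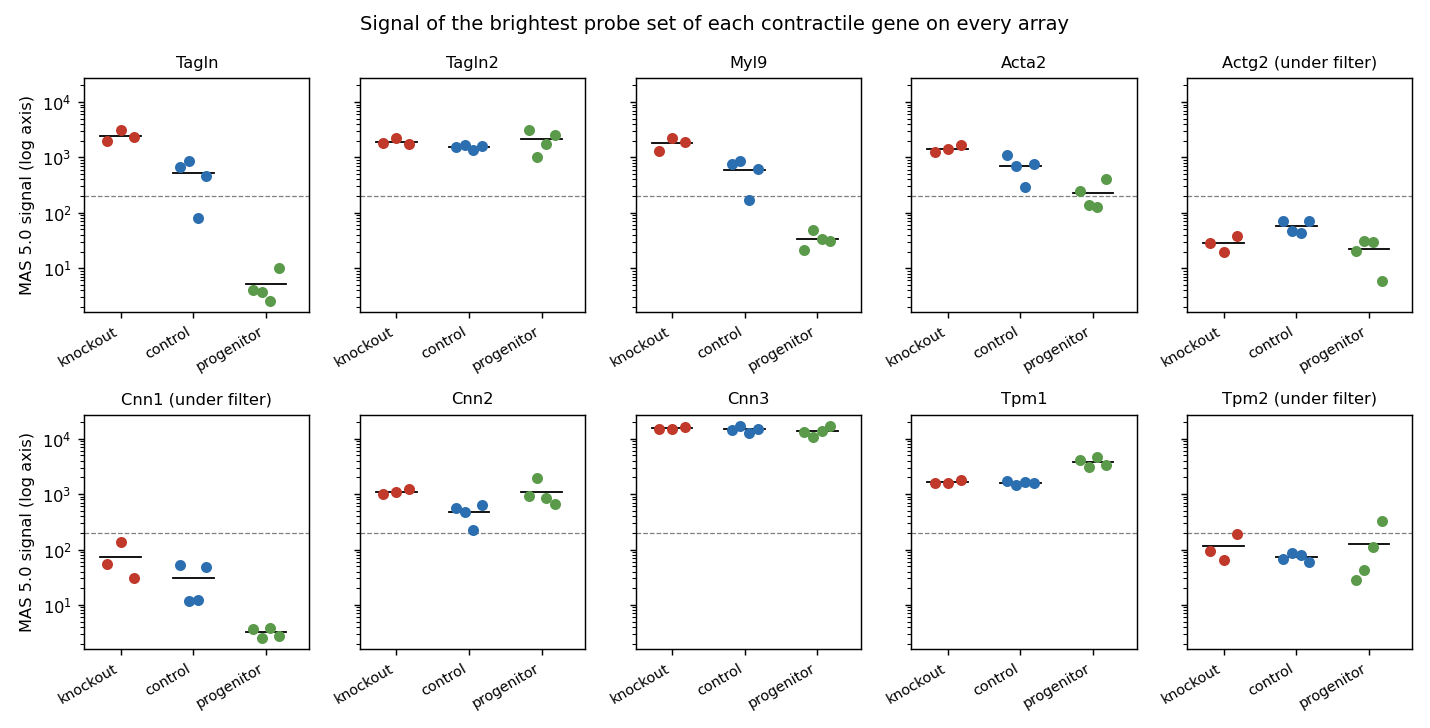
MAS 5.0 signal (log axis) of the brightest probe set of each of the 10 genes on the knockout, control and progenitor arrays; points are single arrays, black lines group means, and the dashed line the filter at 200. Tagln and Myl9 fall from knockout to control to progenitor arrays without overlap, while Cnn3 overlaps in all groups and Tpm1 is highest on the progenitor arrays.

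Between knockout and control oligodendrocytes, 1 of the 7 genes (Tagln) was called higher and none lower. At an unadjusted p under 0.05 there were 4 genes, all with higher means in the knockout. Over the brightest probe sets of all 10069 genes, 2.82% were called higher and 3.44% lower in this comparison. The knockout arrays lay above all control arrays, without overlap, for 5 of the 7 (Tagln, Tagln2, Myl9, Acta2 and Cnn2), against 17.4% of all genes, and below them for none, against 14.2%. The median difference of the 7 was 1.13 on the log2 scale, and that of all genes 0.03. The set was chosen with earlier results of these data known, so nothing is read from these values against those of all genes. With the replicate number as a block, 3 of the 7 were called higher (Tagln, Myl9 and Cnn2). That fit left out the progenitor arrays and control replicate 4. Over all 18568 probe sets it called 2102 higher, against 435 in the fit of all 11 arrays.

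Tagln, the actin binder SM22 alpha, read 1997, 3110 and 2315 on the 3 knockout arrays. It read 660, 873, 80.7 and 461 on the 4 control arrays, and 4.1, 3.7, 2.6 and 10.2 on the progenitor arrays. No group overlapped another, and control replicate 3 was far below the other controls. Knockout exceeded control by 2.58 ± 0.59 (log2, SE), or 6.00-fold, with a limma adjusted p of 0.0258. Over 21 alternatives that p ran from 0.0021 to 0.127. It was 0.077, 0.127 and 0.0883 without knockout replicate 1, 2 or 3, so the call ended without any one of them. Without control replicate 3 the fold was 3.71 and the adjusted p 0.00444.

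The progenitor signals of Tagln were all under 100, which makes any fold against them a bound. Bounds were computed against a signal of 100 as the floor for such groups. Control oligodendrocytes exceeded progenitors at least 3.52-fold (adjusted p 0.000111), and at least 5.68-fold without control replicate 3. Knockout oligodendrocytes exceeded progenitors at least 21.1-fold (adjusted p 8.6e-06). Tagln and Myl9 passed the filter on low signals only through the oligodendrocyte arrays, so they had to differ from the progenitors to be tested at all.

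Myl9, the regulatory light chain of smooth muscle and nonmuscle myosin II, followed the same order. Its signals were 1285, 2238 and 1939 in the knockout, 771, 858, 170 and 614 in the control, and 21.3, 48.4, 34.3 and 31 in the progenitors. Groups did not overlap, and control replicate 3 was again the lowest control. The knockout mean exceeded the control by 1.75 ± 0.47 on the log2 scale (3.36-fold), with a limma adjusted p of 0.0512, just above the threshold. With the replicate number as a block the adjusted p was 0.0354, and over all alternatives it ranged from 0.0135 to 0.216. Control oligodendrocytes exceeded progenitors at least 4.59-fold (adjusted p 9.3e-05), and knockout oligodendrocytes at least 15.4-fold (adjusted p 1.07e-05).

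Acta2, smooth muscle alpha actin, read 1234, 1411 and 1698 in the knockout and 1096, 691, 298 and 756 in the control. In the progenitors it read 244, 140, 129 and 407. All knockout arrays were above all controls, while control replicate 3 lay below progenitor replicate 4. Its probe set, 1416454_s_at, is of the kind marked as matching more than 1 transcript, so signal from related actins is not separated. The knockout exceeded the control by 1.13 ± 0.44 on the log2 scale (2.20-fold, adjusted p 0.185), and no alternative called it, with adjusted p-values of 0.0712 to 0.430. It was 2.96-fold higher in control oligodendrocytes than in progenitors (adjusted p 0.0073) and 6.49-fold higher in knockout oligodendrocytes than in progenitors (adjusted p 0.000519). Its other 2 probe sets read at most 20.4 on any array.

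Actg2, the gamma actin of smooth muscle, was under 100 on every array. It read 28.5, 19.9 and 37.9 in the knockout, 72, 46.8, 42.8 and 71.9 in the control and 20.8, 30.8, 29.6 and 5.8 in the progenitors. The control arrays were above both other groups, at signals too low for the filter. Fitted without the filter, the control exceeded the progenitors by 1.02 on the log2 scale (limma adjusted p 0.0211), and the knockout differed from the control by -0.73 (adjusted p 0.37).

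The 3 calponins did not share a pattern. Cnn1, the calponin of differentiated smooth muscle, read 54.5, 136 and 30.5 in the knockout, 52, 11.6, 12.1 and 48.9 in the control and 2.5 to 3.8 in the progenitors. Only knockout replicate 2 was above 100, and knockout and control arrays overlapped. Without the filter, Cnn1 exceeded the progenitors by 1.17 in the control (log2, limma adjusted p 0.0395) and by 2.05 in the knockout (adjusted p 0.00314), while knockout and control differed by 0.88 (adjusted p 0.429).

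Cnn2, the calponin of many nonmuscle cells, read 999.7, 1108 and 1219 in the knockout. It read 564, 476, 222 and 644 in the control, and 940, 1928, 843 and 673 in the progenitors. The control arrays were the lowest of the 3 groups without overlap, and knockout and progenitor arrays overlapped. The control lay below the progenitors by 1.15 ± 0.36 on the log2 scale, that is 2.22-fold lower (limma adjusted p 0.0178). The knockout mean exceeded the control by 1.28 ± 0.39, or 2.44-fold, with a 95% interval of 0.44 to 2.13 on the log2 scale and an adjusted p of 0.0822. That p was 0.0181 with the replicate number as a block, 0.0217 without progenitor replicate 2, and 0.0137 to 0.239 over all alternatives. Knockout and progenitors differed by 0.13 on the log2 scale (adjusted p 0.793).

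Cnn3, the acidic calponin of brain and other nonmuscle tissue, had 6 probe sets past the filter. Its brightest, 1436836_x_at, read 15206, 15293 and 16275 in the knockout, 14452, 16756, 12837 and 15083 in the control, and 13115, 10579, 13720 and 17162 in the progenitors. All groups overlapped, and none of the 3 comparisons was called, with log2 differences of 0.08, 0.13 and 0.21 (adjusted p 0.848, 0.468 and 0.274). Under quantile normalization it was called higher in both kinds of oligodendrocyte than in progenitors.

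Another Cnn3 probe set, 1426724_at, gave a different answer. It read 8562, 11255 and 9332 in the knockout, 7460, 9819, 4888 and 7327 in the control, and 3907, 3571, 3360 and 3065 in the progenitors. All oligodendrocyte arrays were above all progenitor arrays. The difference from progenitors was 1.04 ± 0.20 in the control (log2, limma adjusted p 0.0012) and 1.47 ± 0.21 in the knockout (adjusted p 0.000241). Probe set 1456380_x_at was also called higher than in progenitors, by 1.20 in the control (adjusted p 0.00869) and 1.06 in the knockout (adjusted p 0.0236), the latter lost without knockout replicate 1 (0.11) or progenitor replicate 3 (0.0581). On 1455570_x_at and 1436759_x_at, progenitor replicates 1 and 4 read 8107 and 11539, and 8134 and 11684, above the 5124 to 5955 of replicates 2 and 3. These are the 2 progenitor arrays with low Gapdh 5′ to 3′ ratios, and the part of RNA length in the result was not tested.

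Tagln2, the transgelin of nonmuscle cells, showed the same split between probe sets. Its brightest, 1426529_a_at, read 1842, 2230 and 1733 in the knockout, 1570, 1671, 1380 and 1612 in the control, and 3171, 1006, 1721 and 2536 in the progenitors. The knockout arrays were above the control arrays, within the spread of the progenitors. The log2 differences were 0.30 for knockout against control (limma adjusted p 0.684), -0.31 for control against progenitors (0.385) and -0.01 for knockout against progenitors (0.987). Without progenitor replicate 2, the array at 1006, control against progenitors was -0.62 and was called lower (adjusted p 0.0207, and 0.0471 with control replicate 3 left out as well).

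Probe set 1439407_x_at of Tagln2 read 582 to 613 in the knockout, 482 to 702 in the control, and 3965, 490, 1484 and 2869 in the progenitors. Progenitor replicates 1 and 4 were again the highest, and replicate 2 lay among the oligodendrocyte arrays. It was called lower in both oligodendrocyte groups than in progenitors, by 1.46 in the control (limma adjusted p 0.0265) and 1.49 in the knockout (adjusted p 0.0359). The first call ended, at adjusted p-values of 0.0553 to 0.0791, without control replicate 1 or 2 or progenitor replicate 1 or 4. The second ended, at 0.0504 to 0.0931, when a single knockout array or progenitor replicate 1, 3 or 4 was left out. Without progenitor replicate 2 the folds rose from 2.76 to 4.15 and from 2.81 to 4.22.

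Tpm1, the alpha tropomyosin gene, gave lower signals in oligodendrocytes than in progenitors. Its brightest probe set, 1423049_a_at, read 1573, 1620 and 1814 in the knockout, 1703, 1438, 1633 and 1570 in the control, and 4148, 3051, 4719 and 3292 in the progenitors. The oligodendrocyte groups overlapped each other and lay wholly below the progenitors. The control was 2.35-fold lower than the progenitors (log2 -1.23 ± 0.17, limma adjusted p 0.000143) and the knockout 2.24-fold lower (-1.16 ± 0.18, adjusted p 0.000369). Knockout and control differed by 0.07 (95% interval -0.32 to 0.46, adjusted p 0.888).

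The second Tpm1 probe set, 1423721_at, separated the genotypes more. It read 1158, 1588 and 1461 in the knockout, 948, 698, 847 and 886 in the control, and 1717, 1626, 3705 and 1238 in the progenitors. Knockout arrays were above all control arrays, and within the range of the progenitors only in part. The knockout mean exceeded the control by 0.72 ± 0.31 on the log2 scale (limma adjusted p 0.242, and 0.0415 with the replicate number as a block). The control was 1.16 below the progenitors (adjusted p 0.00591), and the knockout differed from them by -0.44 (adjusted p 0.252). The third, 1456623_at, was lower than in progenitors by 1.98 in the control (adjusted p 0.00182) and 1.80 in the knockout (adjusted p 0.00515), with 224 to 701 in progenitors and 46.5 to 143 in oligodendrocytes. It passed the filter through the progenitor arrays alone, so it had to differ there.

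Tpm2, the beta tropomyosin gene, passed the filter on none of its 4 probe sets. Its brightest, 1419738_a_at, read 92.8, 65.7 and 189 in the knockout, 67.5, 86.2, 79.2 and 58.5 in the control, and 28.7, 42.9, 110 and 324 in the progenitors. Progenitor replicate 4 alone was above 200, and all groups overlapped. Over the 10 probe sets of the set that missed the filter, signals ran from 1 to 323.7.

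**Figure D2:**
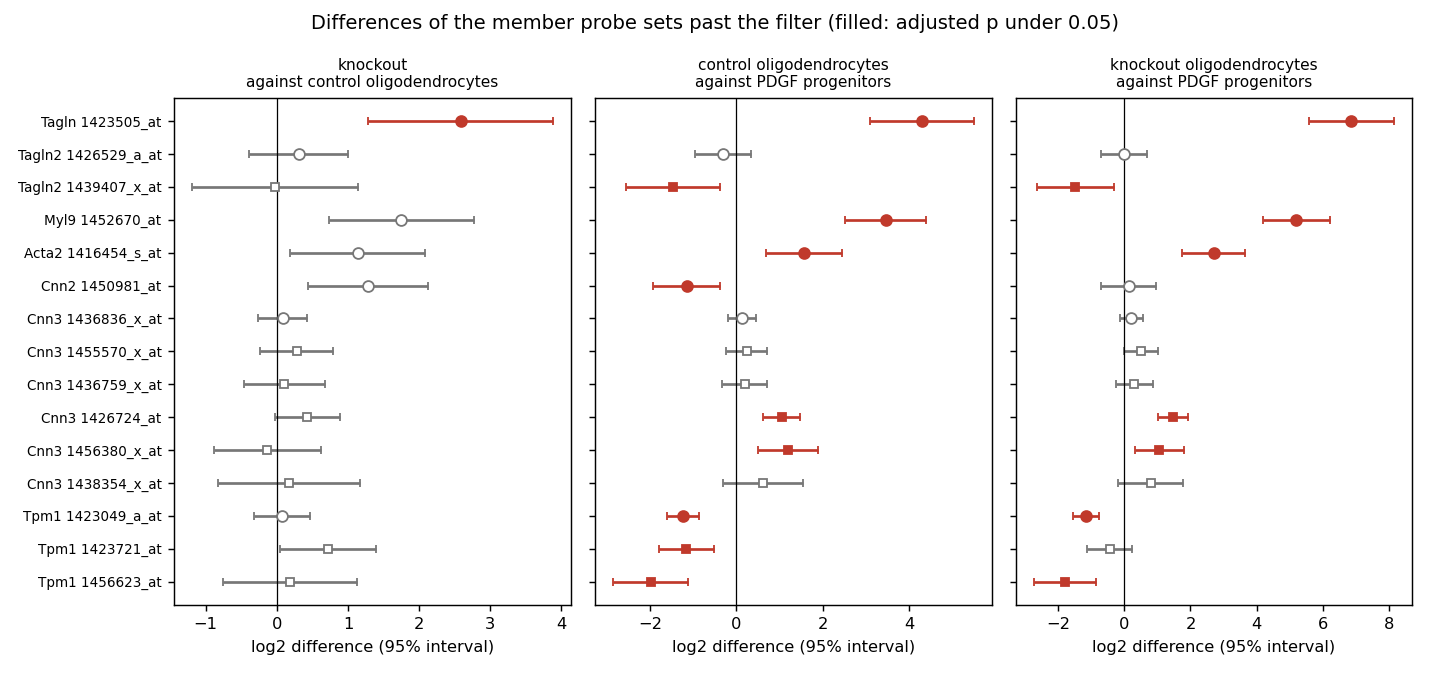
Log2 difference (x axis) with its 95% interval for the 15 probe sets past the filter in each of the 3 comparisons; circles are the brightest probe set of a gene, squares its others, and filled red marks a limma adjusted p under 0.05. Tagln alone is called between knockout and control, while Tagln, Myl9 and Acta2 lie right of 0 and Tpm1 left of 0 against progenitors.

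Against progenitors, genes of the set moved in both directions, as did much of the array. Control oligodendrocytes had 3 of the 7 genes higher (Tagln, Myl9, Acta2) and 2 lower (Cnn2, Tpm1), where 23.9% of all genes were called higher and 29% lower. Knockout oligodendrocytes had the same 3 higher and 1 lower (Tpm1), where 23.3% were called higher and 26.3% lower. Tagln and Myl9 passed the filter through the oligodendrocyte arrays alone and so had to differ, and nothing is read from the counts of higher genes against those shares. Medians over the 7 were 0.13 and 0.21 on the log2 scale, against -0.09 and -0.05 over all genes. These comparisons share the progenitor arrays. Without the filter on low signals, 5 of the 10 genes were called higher in the control, Actg2 and Cnn1 being added. Both were under 100 on every control and progenitor array. Over all 45037 probe sets fitted without the filter, 6049 were called higher and 6398 lower.

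Control replicate 3 was the lowest control for Tagln, Myl9, Acta2 and Cnn2 alike. Relative to the mean of the 4 controls, it stood at 0.156 for Tagln, 0.281 for Myl9, 0.42 for Acta2 and 0.466 for Cnn2. Its summed signal was 0.833 of the control mean for 9 astrocyte markers and 0.567 for 10 fibroblast markers, the lowest control in both. For 9 markers of mural cells (pericytes and vascular smooth muscle), Mcam left out, it stood at 0.816, above control replicate 1 at 0.722. Mcam, which is also made outside mural cells, was brightest on this array at 1943. This array and progenitor replicate 2 were both left out in an alternative chosen after seeing the data. There 3 of the 7 genes were called higher in the knockout (Tagln, Myl9 and Cnn2). Over all 18568 probe sets 511 were then called higher, against 435 with all arrays.

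**Figure D3:**
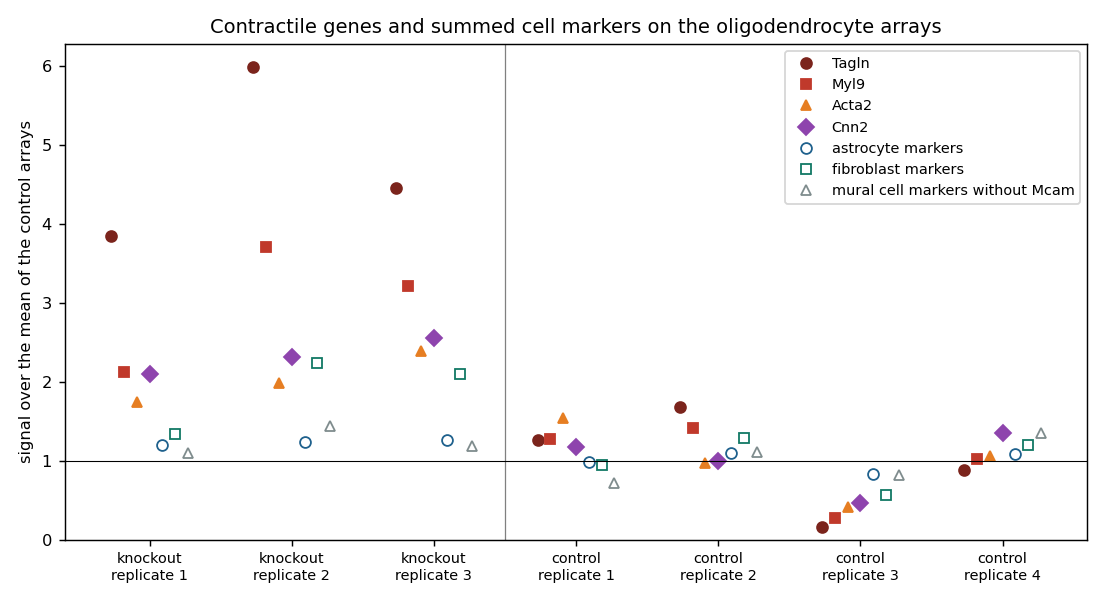
Signal on each of the 7 oligodendrocyte arrays over the mean of the 4 control arrays (y axis), for 4 contractile genes (filled) and for the summed markers of 3 other cell types (open, the mural list without Mcam). Tagln reaches 5.99 on knockout replicate 2 and 0.156 on control replicate 3, while the summed mural cell markers lie between 0.722 and 1.44.

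Markers of other cell types that use contractile genes were read on the same arrays. The summed signal of the mural cell markers ran from 1635 to 1908 in the knockout, 1915 to 2492 in the control and 519 to 863 in the progenitors. Most of the control sum was Mcam, and without it, a choice made after seeing the data, the other 9 summed to 738 to 967 in the knockout, 486 to 909 in the control and 163 to 232 in the progenitors. The direction between the genotypes thus turned with Mcam, the mean being 834 in the knockout and 673 in the control without it, and the groups overlapped. The part of mural cells in the differences of the contractile genes was not tested. Of the 10, 7 were under 100 on every array (Pdgfrb, Kcnj8, Abcc9, Anpep, Vtn, Higd1b and Ndufa4l2). The 2 past the filter, Notch3 and Mcam, differed between knockout and control by 0.46 (limma adjusted p 0.496, and 0.0333 with the replicate block) and -0.67 (adjusted p 0.248, and 0.0375 with the block). Pdgfrb, a defining receptor of pericytes, read 59.2, 89.2 and 92.6 in the knockout, 51.7, 68.6, 21 and 52.7 in the control and 0.9 to 6.2 in the progenitors.

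The summed fibroblast markers ran from 6294 to 10510 in the knockout, 2657 to 6035 in the control and 469 to 554 in the progenitors. Of these 10 genes, 3 were tested and none was called between knockout and control (all genes 2.82% higher and 3.44% lower). Col1a1 and Lum were under 100 on every array. Thy1, a surface protein of fibroblasts and neurons, differed between them by 1.40 (limma adjusted p 0.0604, and 0.0187 with the replicate block), and Pdpn by 0.51 (adjusted p 0.452). The collagen genes Col1a2 and Col3a1 reached 829 and 956 on knockout replicate 3 and at most 167 on any other array. On the oligodendrocyte arrays, Pdpn and Thy1 made up most of the summed signal. Without them the other 8 summed to 764, 1242 and 2859 in the knockout and 489 to 879 in the control. The sum of all 10 was thus highest on knockout replicate 2, and that of the 8 on knockout replicate 3. Of the oligodendrocyte arrays, Tagln and Myl9 were highest on knockout replicate 2, and Acta2 and Cnn2 on knockout replicate 3. The part of fibroblasts in the differences of the contractile genes was not tested.

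Astrocyte markers differed mainly between oligodendrocyte and progenitor arrays. Their sum was 95570 to 101000 in the knockout, 66630 to 87580 in the control and 8872 to 15840 in the progenitors. All 9 were called higher than in progenitors in both oligodendrocyte groups, where 23.9% (control) and 23.3% (knockout) of all genes were called higher. Of the 9, 4 (Gfap, Aqp4, Aldh1l1 and Gja1) reached 200 on no progenitor array, so they had to differ. None of 9 was called between knockout and control (median 0.45), where 2.82% of all genes were called higher and 3.44% lower. The knockout arrays lay above all control arrays for S100b (mean 13310 against 6988, adjusted p 0.493 with limma), Slc1a3 (8147 against 5744, 0.626) and Slc1a2 (9403 against 6574, 0.489). Of all genes, 17.4% did so. For the other astrocyte markers knockout and control arrays overlapped, and Glul averaged 11330 in the knockout and 11790 in the control. Gfap, the astrocyte filament gene, differed by 7.36 on the log2 scale between control and progenitors (limma adjusted p 7.05e-11) and by 0.05 between knockout and control (adjusted p 0.93). Aldoc differed between knockout and control by 0.23 (adjusted p 0.412). The part of these cells in the differences of the contractile genes was not tested. Of 8 endothelial and of 8 microglial markers, 7 each were under 100 on every array, Kdr and Csf1r being the others.

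The lineage markers show the state of the cultures in which these values were read. The oligodendrocyte markers summed to 74630 to 87920 in the knockout and 95980 to 113900 in the control, with 2 of 8 called lower in the knockout, the myelin genes Mag and Mog (limma adjusted p 0.00703 and 0.00768). The progenitor markers summed to 44320 to 51130 and 29860 to 40700, with 1 of 7 called higher, the matrix gene Vcan (adjusted p 0.0027). Neuron markers summed to 1380 to 1631 and 2284 to 2565, with none of 6 called. Between knockout and control, 2.82% of all genes were called higher and 3.44% lower. On the progenitor arrays the oligodendrocyte markers summed to 51310 to 102400.

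Other genes of smooth muscle were low in part and bright in part, and nothing about the label of the set is read from them. Of 15 such genes 14 had a probe set and 7 passed the filter. Smooth muscle myosin heavy chain Myh11, Lmod1, Ldb3 and Pdlim3 were under 100 on every array, as was the cofactor Myocd. The highest signals of Hspb6, Cav1 and Itga8 were 4248, 4797 and 6484. Of the 7, 1 (Pdlim7) was called higher in the knockout than in the control and none lower. The shares of all genes there were 2.82% higher and 3.44% lower. Against progenitors, 4 were higher and 2 lower (Smtn and Itga8) in control oligodendrocytes, where 23.9% of all genes were called higher and 29% lower. The knockout had the same counts, against 23.3% and 26.3%. Hspb1, Hspb6 and Cav1 were higher in both, with Mylk in the control and Pdlim7 in the knockout as the fourth. Their medians were 0.50, 1.33 and 1.52 for knockout against control, control against progenitors and knockout against progenitors.

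Pdlim7, a PDZ and LIM domain protein of the actin cytoskeleton, read 1023, 1622 and 1365 in the knockout, 617, 668, 313 and 703 in the control and 356 to 611 in the progenitors. The knockout arrays were above all others. The knockout was 2.35-fold higher than the control (log2 1.23 ± 0.30, limma adjusted p 0.0354), a call that ended, at 0.0519 to 0.174, when knockout replicate 1, 2 or 3 or control replicate 1, 2 or 3 was left out. The small heat shock proteins Hspb1 and Hspb6, which bind actin filaments or their regulators, were at least 3.36-fold (Hspb1) and 5.17-fold (Hspb6) higher in control oligodendrocytes than in progenitors (adjusted p 0.00065 and 5.55e-05). Hspb1 passed the filter through the oligodendrocyte arrays alone, so it had to differ. Cav1, the coat protein of caveolae, was 4.68-fold higher (adjusted p 0.00339). Itga8, an integrin chain of smooth muscle, was 16.4-fold lower in the control than in progenitors (adjusted p 0.0018), and 33.9-fold lower without progenitor replicate 2, which read 279 where the other progenitors read 4705 to 6484. Smtn, the smooth muscle protein smoothelin, was lower than in progenitors by 1.02 in the control (adjusted p 0.0351) and 1.22 in the knockout (adjusted p 0.0245). Leaving out control replicate 1 or 4 or progenitor replicate 1 or 3 ended the first call (0.0744 to 0.104), and leaving out knockout replicate 2 or 3 or progenitor replicate 1 or 3 the second (0.0525 to 0.0835). With the replicate block, Hspb6 and Cav1 were also called higher in the knockout than in the control (adjusted p 0.0318 and 0.00624, against 0.411 and 0.427 without it).

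Among the actin and myosin genes that most cells use, 19 of 21 were tested. In control oligodendrocytes 2 were higher and 7 lower than in progenitors, where 23.9% of all genes were called higher and 29% lower. In the knockout 1 was higher and 5 lower, where the shares were 23.3% and 26.3%, so the lower genes lay near the background. The lower genes in both were the cytoplasmic actins Actb and Actg1, Tpm4, Myh10 and Cfl1. Myh10, a heavy chain of nonmuscle myosin II, was 6.18-fold lower in the control (limma adjusted p 1.53e-05), and Tpm4, a short tropomyosin, 2.87-fold lower (adjusted p 0.000318). Cfl1, the actin-severing protein cofilin, was lower by 0.59 in the control (adjusted p 0.00531) and 0.73 in the knockout (adjusted p 0.00272). With quantile normalization these were 0.13 and 0.12 lower and not called (adjusted p 0.335 and 0.381). Myl6, the essential light chain, was higher by 0.89 on the log2 scale in the control (adjusted p 0.00467), but its probe set reached 200 on no progenitor array. Tmod3, which caps filaments, was higher by 0.47 in the control (adjusted p 0.0454) and 0.60 in the knockout (adjusted p 0.024). Both Tmod3 calls ended under single left-out arrays, the first for 9 of 11 arrays (0.0535 to 0.124) and the second without knockout replicate 1 or 3 (0.0775 and 0.0819).

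Between knockout and control, 2.82% of all genes were called higher and 3.44% lower. Of these 19 actin and myosin genes, 1 was called higher, Cald1, and none lower. Caldesmon, its product, binds actin, tropomyosin and myosin. Cald1 read 4259, 4669 and 4975 in the knockout, 1989, 2514, 1732 and 2968 in the control and 3525, 6462, 3431 and 4096 in the progenitors. The control arrays were the lowest without overlap, as for Cnn2. The knockout was 2.05-fold higher than the control (limma adjusted p 0.0297), which ended, at 0.0514 to 0.115, on leaving out the same single arrays as for Pdlim7. The control was lower than the progenitors by 0.90 on the log2 scale (adjusted p 0.0061). With the replicate block, Myh10 and Tpm4 were called higher in the knockout too (adjusted p 0.0242 and 0.025, against 0.0965 and 0.285 without it).

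Srf, the factor that binds the CArG box, had lower signals in oligodendrocytes than in progenitors. It read 380 to 501 in the knockout, 261 to 477 in the control and 565 to 1234 in the progenitors. It was 2.26-fold lower in the control than in progenitors (limma adjusted p 0.00253) and 0.93 lower on the log2 scale in the knockout (adjusted p 0.0141, and 0.0591 without knockout replicate 2). Between knockout and control Srf differed by 0.24 (adjusted p 0.707). Mrtfb, a cofactor of Srf, was lower in the control than in progenitors by 0.78 (adjusted p 0.0139). Fhl2, a LIM protein that binds the cofactors of Srf, was lower in the knockout than in progenitors by 1.59 (adjusted p 0.0386). That call ended, at 0.0509 to 0.117, without knockout replicate 1 or 2, control replicate 1 or progenitor replicate 1 or 2. Against the control, Fhl2 differed by -1.68 in the knockout (adjusted p 0.132, and 0.0397 with the replicate block).

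The LIM protein genes Csrp1 and Csrp2 ran in opposite directions. Csrp1 was 39.4-fold higher in control oligodendrocytes than in progenitors (limma adjusted p 6.76e-05), and Csrp2 was 1.60 lower on the log2 scale (adjusted p 0.00338). The Csrp1 fold ran from 26.2 to 57.9 over all alternatives, and its progenitor arrays read 93.7, 732, 521 and 53.8. Replicates 1 and 4, at 93.7 and 53.8, had low Gapdh 5′ to 3′ ratios, and the part of RNA length was not tested. Csrp1 read 3256 to 3812 in the knockout and 7250 to 12052 in the control, a log2 difference of -1.35 (adjusted p 0.325, and 0.00321 with the replicate block). Ccn1 and Ccn2, matricellular genes that respond to Srf and to YAP, were 8.84-fold and at least 1.62-fold higher in the control than in progenitors (adjusted p 0.000655 and 0.000622). Both passed the filter through the oligodendrocyte arrays alone, so they had to differ. Their knockout means exceeded the control by 1.46 (adjusted p 0.196, and 0.0285 with the block) and 1.31 (adjusted p 0.126, and 0.0467 with the 2 groups alone).

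**Figure D4:**
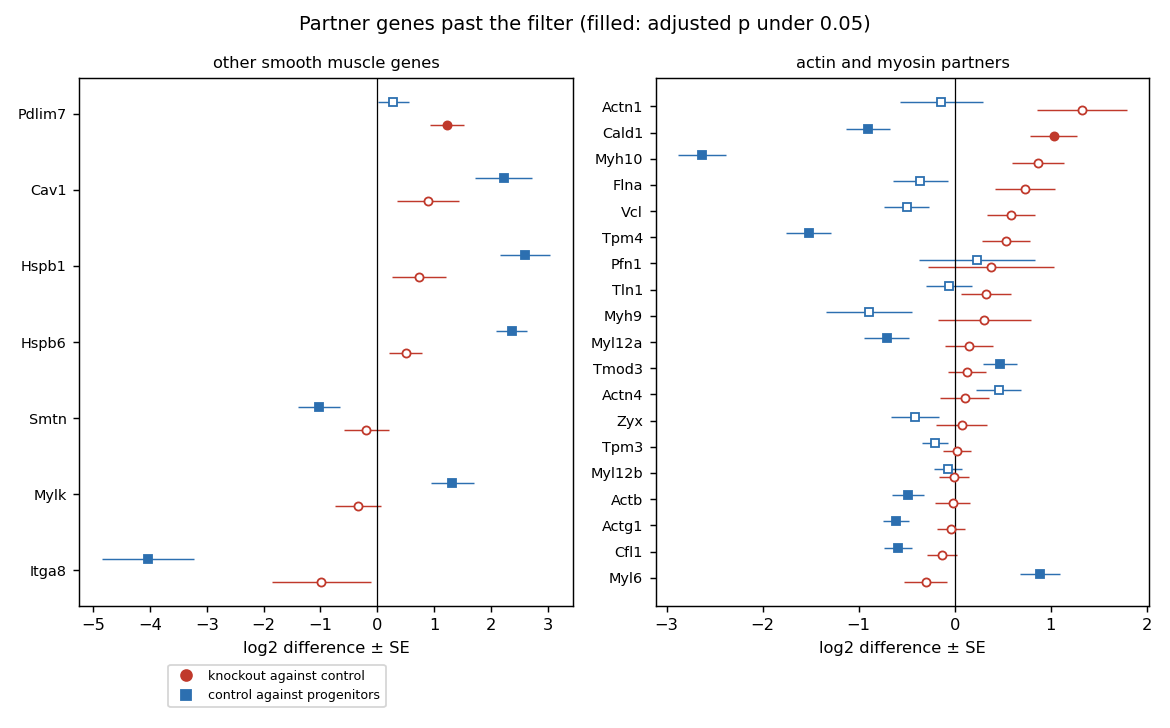
Log2 difference ± SE (x axis) of the genes past the filter in 2 lists, for knockout against control (red circles) and control against progenitors (blue squares); filled marks have a limma adjusted p under 0.05. Pdlim7 and Cald1 are the only filled circles, while Itga8 and Myh10 lie furthest left among the squares of their lists.

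The genes whose log2 signals ran most like Tagln over the 11 arrays were ranked by Pearson's r among 10068 others. Myl9 came first (r = 0.994 over 11 arrays, 0.992 over the 7 oligodendrocyte arrays). It was followed by the caveolar gene Cavin1 (0.991), Clca3a2 (0.990), the growth factor receptor gene Fgfr3 (0.989) and the basement membrane gene Nid2 (0.987). The points share the 3 groups, so genes that differ between the groups rank high, and no test is attached. Over the 7 oligodendrocyte arrays alone those 4 stood at 0.965, 0.960, 0.959 and 0.944.

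Within the set, likeness to Tagln fell off after Myl9. Acta2 ranked 205 (r = 0.944), Cnn3 2726 (0.552), Cnn2 4840 (-0.01), Tagln2 4892 (-0.03) and Tpm1 9265 (-0.86). Clca3a2 averaged 920 ± 247 (SD, n = 3) in the knockout, 264 ± 137 (n = 4) in the control and 8.8 ± 4.75 (n = 4) in the progenitors. Fgfr3 averaged 2579 ± 60.1, 1396 ± 576 and 228 ± 22.9 in the same order, above 100 in every group.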

How the data were processed

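The authors deposited linear signal intensity per probe set, computed by MAS5 under GCOS 1.3 and scaled to a target of 500 per chip, per the submitters' processing notes. RNA (1 µg) was labelled in a two-cycle assay, per the labels' protocols. Genes were named from the platform annotation, with 34958 probe sets having 1 symbol, 932 several and 9211 none, and 34754 were matched to current symbols through Entrez. After removal of 64 control probe sets and the filter at 200 on 3 arrays, log2(signal + 16) was fitted with limma 3.58.1 (R 4.3.3; lmFit, eBayes with a trend), 1 mean per group, on all 11 arrays. Fold changes are on the log2(signal + 16) scale, which understates changes at low signals. A group with all arrays under 100 gave a bound, the brighter group's mean over the floor.

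Same-numbered knockout and control arrays deviated together (correlations 0.228, 0.238 and 0.238), so their numbers were taken as pairs by a rule asking for more than 0.1 in every pair. Arrays with different numbers correlated as much (0.362 for knockout 3 with control 4, 0.214 for knockout 1 with control 2), and the labels state no pairing. Values with the block are therefore given beside those without it. For knockout against control, the fit with the block also left out the progenitor arrays and control replicate 4. With the 2 groups alone and no block, limma also called Myl9, Cnn2, Tpm1 1423721_at, Thy1, Fhl2, Csrp1, Ccn2, Myh10 and Tpm4. Their adjusted p-values ran from 0.00231 (Csrp1) to 0.0467 (Ccn2). Among the genes read under the alternatives, Hspb6, Cav1, Ccn1, Notch3 and Mcam were called only with the block. The part of the pairing was not tested. The script was tested on simulated data. The members and lists were chosen with earlier results of these data known. Named are all members, up to 3 called genes per direction and comparison of each partner list, Srf, leading markers of the cell types that bear on the members, and the 5 genes most like Tagln. A planned comparison of protein sequences was not run, and the counts of 1 further gene list are not reported here.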

Additional observations from a re-analysis of the deposited data

How the results depend on the processing

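The number of the 7 genes called higher in the knockout than in the control was 1, and 2 with a pseudocount of 64, quantile normalization or 1 probe set per gene, 3 with the 2 groups alone, 3 with the replicate block, and 0 with a pseudocount of 1. It was 0 to 3 when single arrays were left out, and 3 without both control replicate 3 and progenitor replicate 2. The number higher in control than in progenitors went from 3 to 5 without the filter. Over all probe sets it went from 5011 of 18568 to 6049 of 45037. Calls over all probe sets (435 higher and 583 lower in knockout against control) were 1272 and 1270 with the 2 groups alone, 2102 and 1631 with the block, and 184 and 349 without knockout replicate 1. Quantile normalization gave 477 and 679.

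Differences under 0.25 in size that changed sign, none called, were these for knockout against control. Tagln2 1439407_x_at was 0.0254 with the replicate block, 0.0431 without both arrays and -0.1327 to 0.0431 over single left-out arrays. Cnn3 1456380_x_at was 0.0199 with the block and -0.3985 to 0.0199 over single arrays, 1438354_x_at -0.2105 without both arrays and -0.2105 to 0.5757, and 1436759_x_at -0.0135 to 0.1846. Tpm1 1456623_at was -0.0690 to 0.4088. Smtn was 0.0914 without both arrays and -0.4956 to 0.0914 over single arrays, and Cfl1 0.0014 with quantile normalization and -0.2238 to 0.0104. For knockout against progenitors, Tagln2 1426529_a_at was 0.0063 with quantile normalization, 0.1227 with the block and -0.3176 to 0.2295 over single arrays, and Cnn2 was -0.0597 with the block and -0.0597 to 0.4392. For control against progenitors, Fhl2 was -0.0213 with quantile normalization and -0.3112 to 0.6218 over single arrays. The causes were not tested. Against progenitors the replicate numbers did not pair the arrays (correlations -0.143, 0.176, 0.071 and 0.091 for the control, -0.103, 0.102 and -0.104 for the knockout), and the block kept the counts of 3 higher and 2 lower, and of 3 higher and 1 lower. Between knockout and control the block changed no call other than those given with it, among the genes read under the alternatives. Some named genes were not read with the block, among them S100b, Slc1a3, Slc1a2, Mag, Mog, Vcan, Cavin1, Clca3a2, Fgfr3 and Nid2.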
